A study of Mus musculus with 127 samples.

Results

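The pore-forming alpha1 subunits of voltage-gated calcium channels were followed across adult mouse cortex, cell fractions of cortex and Chd8 genotypes. The 8 genes, taken by name, were Cacna1c and Cacna1d (L-type), Cacna1a (P/Q-type), Cacna1b (N-type), Cacna1e (R-type), and Cacna1g, Cacna1h and Cacna1i (T-type), out of 54838 gene rows in the deposited tables. All 8 passed the filter on low counts in every comparison. RNA was selected for poly(A) tails and sequenced in bulk from mice at postnatal day 60. Of 127 labelled libraries, 123 were used, and 4 cytosolic libraries were not analysed here.

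Voltage-gated calcium channels open when the membrane depolarises, and the alpha1 subunit holds the pore and the voltage sensor. L-type channels couple depolarisation to signalling and gene expression in cell bodies and dendrites, P/Q-, N- and R-type channels admit the calcium that triggers transmitter release, and T-type channels open near resting potential and shape burst firing. Auxiliary alpha2delta and beta subunits set how many channels reach the membrane and how they gate.

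Chd8 encodes a chromatin remodeller, and people who carry a disrupted copy of this gene are often autistic. In the germline line, wild-type (WT) mice were compared with Chd8+/- heterozygotes (HET), whose allele the protocol names as a 5 bp deletion. This line gave whole cortex from 15 WT and 16 HET mice, nuclear fractions from 12 WT and 9 HET, synaptic fractions from 11 WT and 7 HET, and cytosolic fractions from 5 WT and 7 HET. In the conditional line, Camk2a-CRE acts in excitatory forebrain neurons, so other cells in the tissue keep the floxed allele. Its nuclear fractions came from 4 Camk2a-CRE Chd8+/+ (WT), 6 Camk2a-CRE Chd8+/flox (HET) and 3 Camk2a-CRE Chd8flox/flox (HOM) mice, and its synaptic fractions from 4, 5 and 5 mice of these genotypes. By the titles, conditional whole cortex came from 8 Chd8+/flox mice without Cre and 6 with Camk2a-CRE, although the protocol describes 6 WT and 8 Chd8+/flox mice. Cre and deletion cannot be told apart in that contrast. Both sexes were present in every group, and each library is taken as a separate animal within its fraction. Commercial kits for synaptosomes and for nuclei were used to isolate the synaptic and nuclear material.

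The genes lie on 8 chromosomes (GRCm38). Cacna1c (ENSMUSG00000051331) spans chr6:118587240-119196418 on the minus strand, and Cacna1d (ENSMUSG00000015968) chr14:30039939-30491455 on the minus strand. Cacna1a (ENSMUSG00000034656) spans chr8:84388440-84640246 on the plus strand, Cacna1b (ENSMUSG00000004113) chr2:24603887-24763152 on the minus strand, and Cacna1e (ENSMUSG00000004110) chr1:154390731-154884501 on the minus strand. Cacna1g (ENSMUSG00000020866) spans chr11:94408391-94474198 on the minus strand, Cacna1h (ENSMUSG00000024112) chr17:25374285-25433783 on the minus strand, and Cacna1i (ENSMUSG00000022416) chr15:80287238-80398279 on the plus strand. Their exons cover between 9763 bases (Cacna1h) and 25228 bases (Cacna1e). Genes on the opposite strand overlap exons of 3 of them. The largest such overlap is that of Chdh with 589 bases of Cacna1d, and counts of Chdh came to 7.72% of those of Cacna1d, so reads there may not be separated.

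RefSeq promoter windows of GRCm38.p6, each 300 bases long with 250 bases before the start site, matched 5 of the 8 genes with 8 entries. Those of Cacna1i and Cacna1d are shown because these 2 genes lay furthest apart between the synaptic and nuclear fractions. GGGCGG, or CCGCCC on this strand for a match on the other, is in capitals, and overlapping matches were counted.
Cacna1i, chr15:80286988-80287287, plus strand: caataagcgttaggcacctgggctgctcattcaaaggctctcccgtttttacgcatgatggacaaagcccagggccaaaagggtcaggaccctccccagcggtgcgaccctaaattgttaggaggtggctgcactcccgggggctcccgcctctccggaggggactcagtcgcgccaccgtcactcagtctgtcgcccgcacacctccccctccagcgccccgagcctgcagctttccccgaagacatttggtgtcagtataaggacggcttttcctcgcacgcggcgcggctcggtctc
Cacna1d, chr14:30491107-30491406, minus strand: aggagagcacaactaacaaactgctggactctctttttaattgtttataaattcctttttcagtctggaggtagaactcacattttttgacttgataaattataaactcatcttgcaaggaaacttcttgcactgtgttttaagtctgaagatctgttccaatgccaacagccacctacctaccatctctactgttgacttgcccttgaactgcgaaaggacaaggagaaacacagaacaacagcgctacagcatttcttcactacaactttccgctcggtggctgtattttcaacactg
Cacna1d, inner start, chr14:30353437-30353736, minus strand: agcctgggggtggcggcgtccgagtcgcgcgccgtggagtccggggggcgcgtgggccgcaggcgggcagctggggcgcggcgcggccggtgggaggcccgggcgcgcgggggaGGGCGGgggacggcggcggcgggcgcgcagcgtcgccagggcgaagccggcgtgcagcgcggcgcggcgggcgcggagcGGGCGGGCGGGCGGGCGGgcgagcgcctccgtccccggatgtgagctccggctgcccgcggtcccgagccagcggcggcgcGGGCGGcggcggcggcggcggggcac
GGGCGG was present in 3 of the 8 entries, against 35.7% of all 32851 promoter windows of this length. The inner Cacna1d window has 87.3% GC and 6 matches, the upstream Cacna1d window has 40.3% GC and no match, and the Cacna1i window has 62.7% GC and no match, beside a median of 52.7% GC over all windows. TATAAA, searched on both strands, occurred 3 times in the upstream Cacna1d window, which was the only one of the 8 entries with a match, against 13.6% of all windows. These matches describe letters only.

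Libraries held 19 to 134.6 mega counts (M), with conditional cortex deepest (98.1 to 134.6 M) and the other experiments between 19 and 56.6 M. Chd8 was lower in HET than WT in germline cortex (41.7 to 81.3 against 65.9 to 112 CPM, counts per M of gene counts; log2 fold change −0.58, SE 0.0751, edgeR adjusted p = 6.18e-05). In germline nuclear libraries it did not separate the genotypes (94.3 to 147 against 92.0 to 131 CPM), so it does not check those labels. In conditional cortex (37.2 to 66.6 CPM with Cre, 48.1 to 96.9 without) and in the HOM fractions (51.5 to 95.5 CPM nuclear, 28 to 61.3 CPM synaptic) its range overlapped that of the controls. Excitatory neuron markers summed to between 4570 and 11200 CPM in every library, cerebellar markers to at most 5.78 CPM and thalamic markers to at most 77.2 CPM. Choroid plexus and striatal markers reached higher sums, and the highest were in conditional cortex. Choroid plexus markers summed there to 27.7 to 912 CPM without Cre and 30.2 to 606 CPM with Cre. Striatal markers summed to 175 to 1030 CPM with Cre. The relation of these markers to the 8 genes was not tested. The germline synaptic libraries of WT males 1 and 2 stood apart. Their nuclear-retained RNAs (8 RNAs that include Malat1, Neat1, Meg3 and Xist, which is expressed in females) summed to 31600 and 33100 CPM. The other 9 WT synaptic libraries were at 1170 to 3330 CPM and WT nuclear libraries at 20500 to 33200 CPM. Results that rest on them are given with and without them. Sex markers went against the label in 2 germline nuclear libraries (WT male 7 and HET female 4). Conditional animal 47 (HET) had no Cre counts. The 2 libraries of conditional animal 91 carried different genotype labels (HET for the nuclei, HOM for the synaptic fraction).

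All 8 genes were counted in every library (at least 453 counts). Per exonic length (CPM per kilobase of exons, RPKM), Cacna1a led in WT germline cortex at 23.8 ± 4.2 RPKM (SD, n = 15). Cacna1b (16.0 ± 2.65), Cacna1i (16.0 ± 1.48) and Cacna1g (14.4 ± 2.73) followed, and Cacna1b exceeded Cacna1i in 8 of the 15 libraries, so this pair cannot be ordered. Cacna1e (10.2 ± 2.65) and Cacna1h (7.1 ± 1.21) came next, and Cacna1d (4.87 ± 1.02) and Cacna1c (4.81 ± 0.919) were lowest and did not differ beyond their spread. By class, P/Q-, N- and R-type genes together held 51.3% ± 2.11 of the summed RPKM in WT germline cortex, T-type genes 38.8% ± 2.58 and L-type genes 9.93% ± 0.748 (SD, n = 15). Orders and shares by RPKM depend on the length of all annotated exons, which is 21191 bases for Cacna1c and 25228 for Cacna1e. By mean CPM Cacna1c (102) exceeded Cacna1h (69.4) and Cacna1d (61.5), and Cacna1e (258) was near Cacna1a (272).

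The order changed with the fraction. In WT germline nuclei Cacna1b (23.2 ± 2.01 RPKM), Cacna1a (22.5 ± 2.87) and Cacna1g (21.4 ± 2.66, SD, n = 12) were level within their spread. Cacna1e (16.2 ± 1.95) and Cacna1i (15.7 ± 1.35) formed the next pair, Cacna1d stood at 8.39 ± 1.2, and Cacna1h (6.6 ± 0.796) and Cacna1c (6.35 ± 0.753) were lowest. Within the nuclei Cacna1d therefore ranked above Cacna1c, and Cacna1i took the fifth place. In WT germline synaptic libraries without males 1 and 2, Cacna1a (23.6 ± 5.58 RPKM) and Cacna1i (20.1 ± 3.49, SD, n = 9) came first and Cacna1d last (3.8 ± 1.26). Between them were Cacna1b at 18.2 ± 5.55, Cacna1e at 12.9 ± 4.64, Cacna1g at 12.3 ± 2.99, Cacna1h at 5.32 ± 1.4 and Cacna1c at 5.24 ± 1.79 RPKM, where the neighbours Cacna1e and Cacna1g, and Cacna1h and Cacna1c, did not differ beyond their spread. With males 1 and 2 included, Cacna1d was at 5.22 ± 3.35 and Cacna1h at 7.34 ± 4.67 RPKM (SD, n = 11).

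Conditional WT fractions gave a similar picture. In nuclei Cacna1e (21.9 ± 1.97 RPKM), Cacna1b (21.2 ± 1.62) and Cacna1a (21.1 ± 2.59, SD, n = 4) were level, followed by Cacna1g at 15.9 ± 2.26, Cacna1i at 14.8 ± 0.946, Cacna1d at 8.61 ± 1.31, Cacna1c at 6.99 ± 0.521 and Cacna1h at 4.03 ± 0.638. In synaptic libraries Cacna1a and Cacna1i were level at 23.5 ± 1.6 and 23.5 ± 2.27 RPKM, then came Cacna1b at 21.3 ± 0.975, Cacna1e at 19.5 ± 0.777, Cacna1g at 11.1 ± 1.0 and Cacna1c at 7.04 ± 0.529 (SD, n = 4). Cacna1d (4.18 ± 0.622) and Cacna1h (3.99 ± 0.45) were lowest there and did not differ beyond their spread. Cacna1i thus took the fifth place in nuclei and was level with Cacna1a in synaptic libraries.

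Levels were lower in germline cytosol and in conditional cortex. Cytosolic WT libraries held 39.4 RPKM over the 8 genes, from Cacna1b (7.32 ± 2.79) and Cacna1a (7.17 ± 1.51), through Cacna1i (6.26 ± 0.671), Cacna1e (5.93 ± 2.08), Cacna1g (5.16 ± 1.97), Cacna1d (3.03 ± 1.21) and Cacna1c (2.47 ± 0.668), to Cacna1h (2.11 ± 0.523, SD, n = 5). Conditional cortex without Cre held 52.2 RPKM, from Cacna1a (11.7 ± 3.18) and Cacna1i (11 ± 2.92), through Cacna1b (8.66 ± 3.2), Cacna1g (6.27 ± 1.58), Cacna1e (5.7 ± 2.28), Cacna1h (3.86 ± 0.959) and Cacna1c (2.67 ± 1.11), to Cacna1d (2.34 ± 0.642, SD, n = 8). The summed level was 97.2 RPKM in WT germline cortex, but the tables were not normalised together, so these sums are set side by side only. L-type genes took 12.3% ± 0.489 of the sum in WT germline nuclei (n = 12) and 8.72% ± 0.862 in WT synaptic libraries without males 1 and 2 (SD, n = 9), and 13.6% ± 0.482 against 9.85% ± 0.407 in the conditional WT fractions (SD, n = 4 each). In HET germline cortex the shares were 51.8% ± 1.68, 38.7% ± 2.06 and 9.49% ± 0.569 for P/Q-, N- and R-type, T-type and L-type genes (SD, n = 16).

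**Figure D1:**
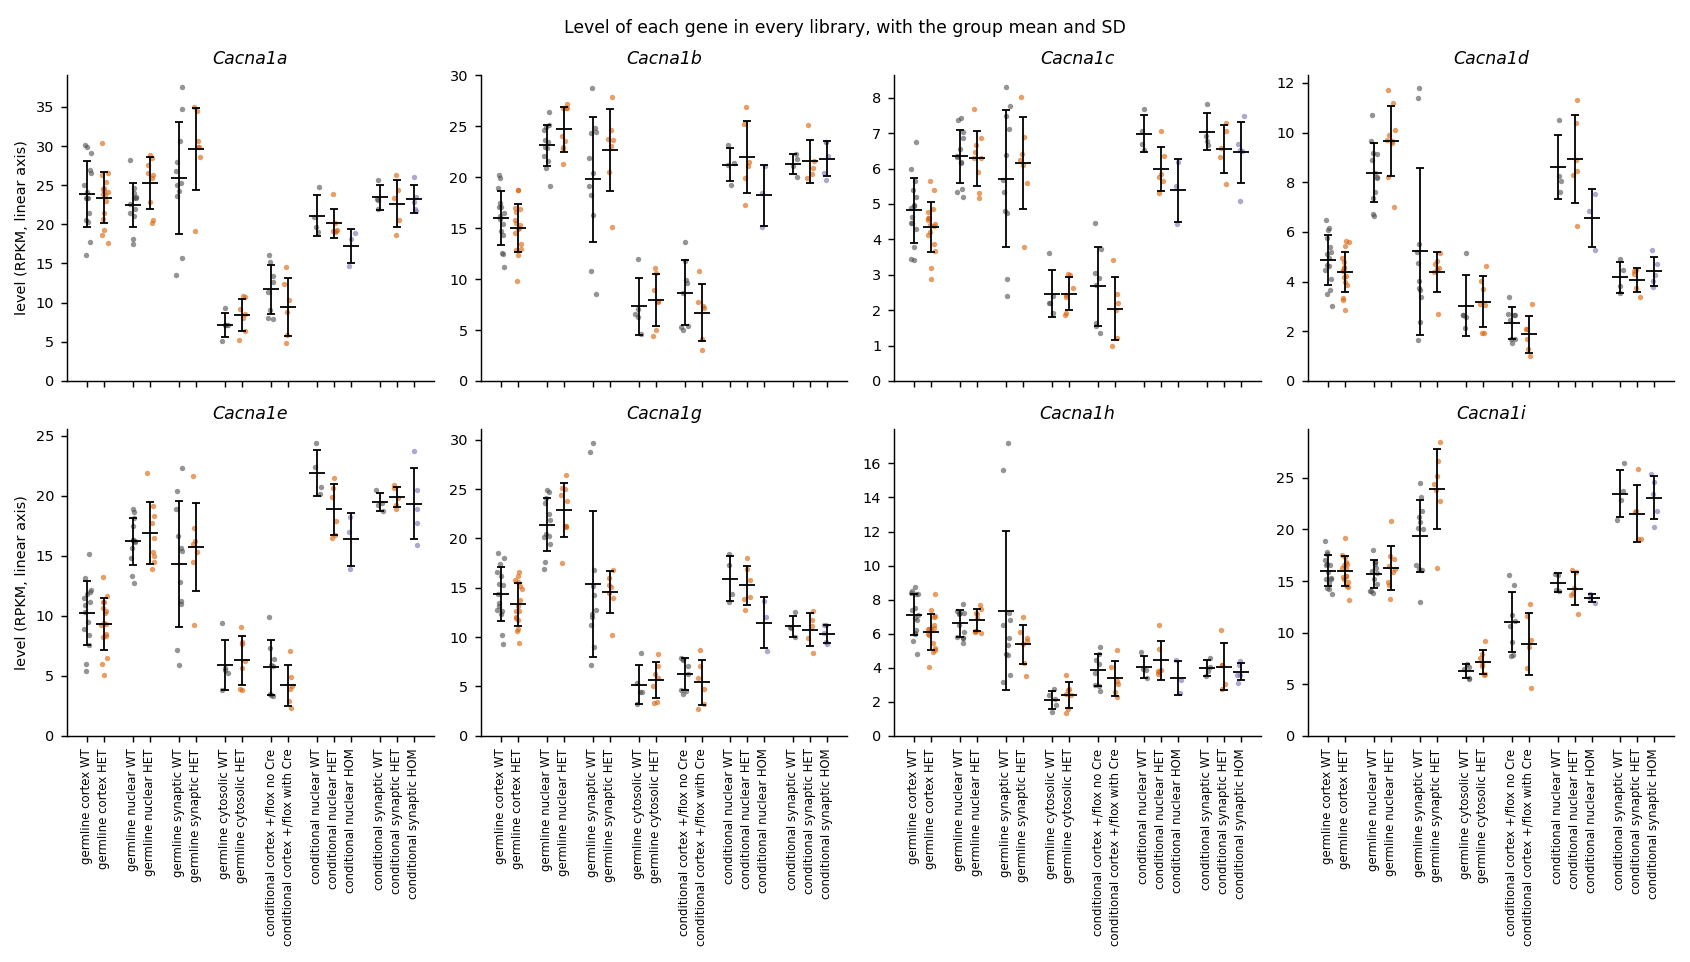
Level of each gene in every library (points, RPKM on a linear axis), by experiment and genotype, with the group mean and SD. Cacna1a, Cacna1b, Cacna1e, Cacna1g and Cacna1i reach above 20 RPKM in at least 1 nuclear library, Cacna1c has group means of at most 7.04 RPKM, and the group means of cytosol and conditional cortex lie below those of all other groups for every gene except Cacna1h; the synaptic WT group includes WT males 1 and 2.

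Synaptic and nuclear libraries with the same animal number were then compared, with 10 WT and 5 HET germline pairs and 4 WT, 5 HET and 3 HOM conditional pairs. In the germline WT pair numbered 29, synaptic WT male 6 had male markers (Xist 2.61 and Ddx3y 34.6 CPM). Nuclear WT male 7 had female ones (547 and 0 CPM), so this pair may not come from the same animal. A fit without this pair changed no call of the family. The fractions also differed in cell type markers. Endothelial and mural markers had a median sum of 2210 CPM in WT germline nuclei and 109 CPM in WT synaptic libraries without males 1 and 2. Inhibitory markers had 477 and 953 CPM. In conditional WT these medians were 1300 and 122 CPM, and 506 and 974 CPM. Their part in the differences between fractions was not tested. Cacna1i and Cacna1a had the highest synaptic over nuclear values by TMM scaling, and Cacna1d had the lowest. In conditional WT pairs Cacna1i was at 139, 138, 154 and 155 CPM in nuclei and at 226, 206, 260 and 233 CPM in the synaptic libraries of the same animals (2 females, then 2 males), so the fractions did not overlap. By edgeR the difference came to 1.23 on the log2 scale, with an SE of 0.106 and an adjusted p = 2.18e-09. Cacna1d moved the other way, from 96.2, 133, 104 and 102 CPM in nuclei to 56.6, 61.8, 48.1 and 44.6 CPM in synaptic libraries, again without overlap (log2 fold change −0.47, SE 0.117, edgeR adjusted p = 0.00134).

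These fold changes carry a scaling that must be read with them. The fit scaled libraries by TMM, which assumes that most genes do not differ, while 48 to 64.5% of all genes were called between the fractions. TMM raised every synaptic fold change by 0.51 to 0.60 on the log2 scale over library totals, and under library totals the median of all genes was −0.64 and −0.79 in germline WT and HET and −0.71, −0.70 and −0.63 in conditional WT, HET and HOM. Relative to the all-gene median, 7 of the 8 genes lay on the synaptic side and Cacna1d on the nuclear side. This held in germline WT and HET and conditional WT and HET, under TMM, RLE and library totals. A scaling factor shifts all genes of a library nearly alike, so agreement of these relative values between scalings was fixed in advance. Without the pairs of WT males 1 and 2, Cacna1g in germline WT also lay on the nuclear side of that median, by −0.19 under TMM and under library totals. In conditional HOM all 8 lay on the synaptic side of that median under each of these scalings.

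The L-type genes split. Cacna1c, the main L-type gene of brain, was called higher in synaptic libraries of germline HET (0.53, SE 0.223, edgeR adjusted p = 0.0466), conditional WT (0.58), HET (0.71) and HOM (0.89) pairs by TMM. Under library totals it was at −0.07 in germline HET and at 0.01, 0.15 and 0.37 in conditional WT, HET and HOM. With RLE factors its germline HET value (0.49) was no longer called. That call held in 7 of 15 fits that each left out 1 animal, and was lost without any 1 of WT females 1, 2 or 3, WT male 3, HET female 1 or HET males 1, 2 or 3 (edgeR adjusted p up to 0.149). Cacna1d was lower in synaptic libraries under both scalings. Without the pairs of WT males 1 and 2 its paired log2 CPM difference was −2.44 to −0.66 with a median of −1.16 in 8 germline WT pairs, and negative in all of 5 germline HET, 4 conditional WT, 5 conditional HET and 3 conditional HOM pairs. By TMM its log2 fold change was −0.36 in germline WT (edgeR adjusted p = 0.153), and −0.70 (edgeR adjusted p = 0.000327) without those 2 pairs. In conditional HOM it was −0.01 by TMM and −0.53 under library totals.

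Among the transmitter-release channels, Cacna1a was higher in synaptic libraries in all 5 fits by TMM, at 0.70 (SE 0.136, edgeR adjusted p = 0.000269) in germline WT, 0.72 in germline HET, and 0.73, 0.78 and 0.98 in conditional WT, HET and HOM. Under library totals these were 0.19, 0.12, 0.16, 0.22 and 0.46, and germline WT turned to −0.02 without the pairs of males 1 and 2. Cacna1b was called in the 3 conditional fits (0.58, 0.59 and 0.80), with 0.20 and 0.47 in germline WT and HET (edgeR adjusted p = 0.26 and 0.064). Its library-total values were 0.01, 0.03 and 0.28, and −0.31 and −0.14. Cacna1e was called in the same 3 fits (0.40, 0.66 and 0.85). Under library totals it turned to −0.17 in conditional WT and was at 0.10 and 0.33 in conditional HET and HOM.

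The T-type genes differed from one another. Cacna1i, known for burst firing in the thalamic reticular nucleus, was higher in synaptic libraries in all 5 fits by TMM (0.75 in germline WT, SE 0.107, edgeR adjusted p = 1.41e-05, then 1.06, 1.23, 1.15 and 1.33) and stayed above 0 under library totals (0.24, 0.46, 0.66, 0.59 and 0.80). Pair by pair, on library totals, it was higher in the synaptic library of 6 of 8 germline WT animals (males 1 and 2 left out; females 4 and 5 were the exceptions), of 5 of 5 germline HET animals, and of all 4 WT, 5 HET and 3 HOM conditional animals. Cacna1g was called by TMM in conditional HOM (0.40, edgeR adjusted p = 0.0309), a call lost with DESeq2 and with RLE factors (both 0.34) and without animal 70, a HOM female (0.14, edgeR adjusted p = 0.517), yet under library totals it was at −0.12 there and called lower in the other fits (−0.59, −0.74, −0.51 and −0.46). In germline WT it was at −0.08 by TMM, and called lower without the pairs of males 1 and 2 (−0.34, SE 0.106, edgeR adjusted p = 0.00724). On library totals it was lower in the synaptic library of all of those 8 germline WT, 5 germline HET, 4 conditional WT and 5 conditional HET animals, and of 2 of 3 HOM animals. Cacna1h was called higher by TMM in germline WT (0.44, edgeR adjusted p = 0.0186) and in the 3 conditional fits (0.56, 0.46 and 0.73), and under library totals it was at −0.08, −0.01, −0.10 and 0.21. In germline WT without the 2 pairs Cacna1h was at 0.19 (edgeR adjusted p = 0.091).

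By count, 3, 3, 7, 7 and 7 of 8 genes were called in either direction in germline WT, germline HET and conditional WT, HET and HOM, against 64.5%, 62.9%, 61.5%, 60.6% and 48% of all genes tested. At an unadjusted p under 0.05 there were 3, 4, 7, 7 and 7, against 68%, 66.8%, 65%, 64.3% and 54.2%. Of the 8, 3 were called higher in germline WT and 3 in germline HET, 6 in conditional WT and HET and 7 in conditional HOM, against 29.3%, 26.8%, 28.6%, 27.9% and 22.9% of all genes tested. Cacna1d was called lower in conditional WT and HET, against 32.9% and 32.7% of all genes, and no gene of the family in germline WT, germline HET or conditional HOM, against 35.2%, 36.1% and 25.1%. The family's median was 0.23, 0.45, 0.57, 0.62 and 0.83 beside −0.14, −0.19, −0.15, −0.14 and −0.11 over all genes. These germline counts and medians include the pairs of WT males 1 and 2. Without those pairs, germline WT had Cacna1d (−0.70, edgeR adjusted p = 0.000327) and Cacna1g (−0.34, edgeR adjusted p = 0.00724) called lower. Cacna1h lost its call there. Germline HET then had Cacna1d called lower (−0.59, edgeR adjusted p = 0.00834) and Cacna1b called higher (0.47, edgeR adjusted p = 0.0385).

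**Figure D2:**
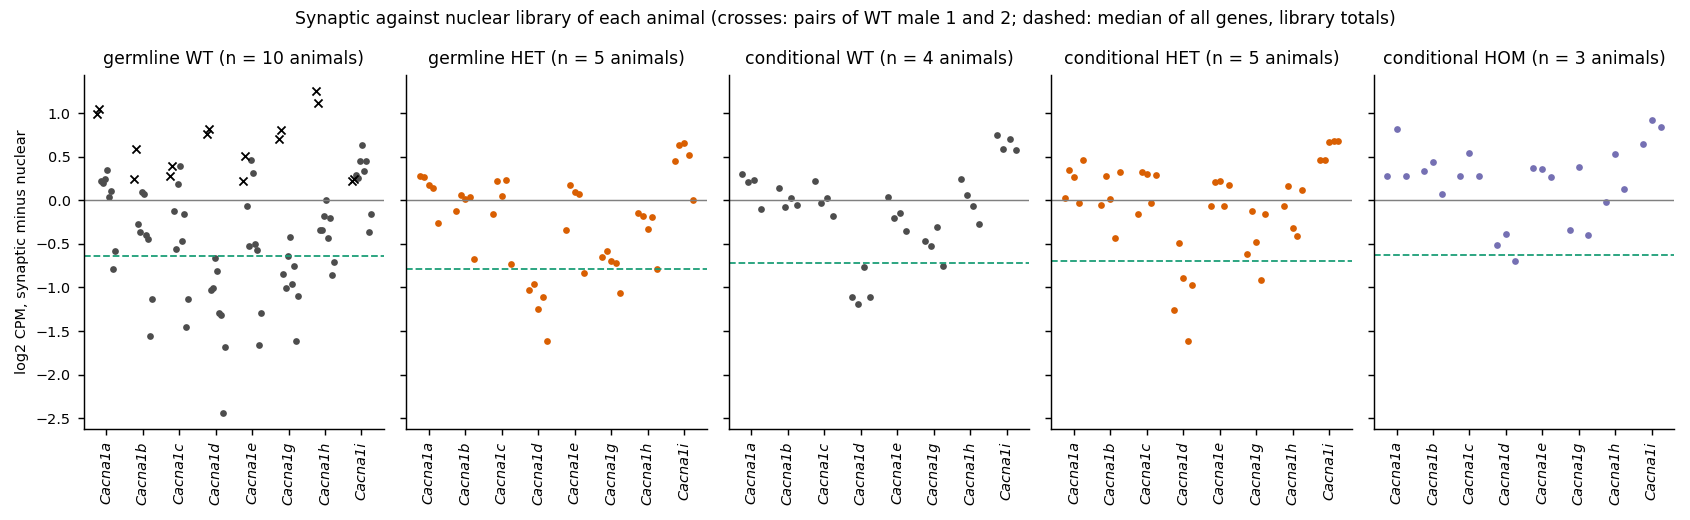
Log2 CPM of the synaptic minus the nuclear library of each animal, by line and genotype (points are animals, crosses are the pairs of WT males 1 and 2, the dashed line is the median of all genes under library totals). Cacna1d lies below 0 in every pair except those 2, where it is at 0.76 and 0.82, and Cacna1i lies above 0 in all conditional pairs. These values use library totals, under which the median of all genes is below 0 in each fit. TMM raised the fold changes of whole fits by 0.51 to 0.60, and its shift for single animals is not given.

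Whether the compartment differences depended on genotype was tested directly. The germline interaction of fraction and genotype called 0 of 8 genes (edgeR; 0% of all genes; 0 of 8 at an unadjusted p under 0.05, against 7.16% of genes; adjusted p from 0.591 to 0.974), and DESeq2 also called none; without the pairs of males 1 and 2 the adjusted p was at least 0.776. In the conditional line the HET interaction called none (0% of all genes; 0 at an unadjusted p under 0.05, against 2.89%). The HOM interaction called none either (0% of all genes; 2 at an unadjusted p under 0.05, against 4.82%), with all 8 estimates above 0. Cacna1d was at 0.47 (edgeR p = 0.0154) and Cacna1e at 0.45 (edgeR p = 0.0101), with adjusted p from 0.896 to 0.948 over the 8. Leaving out conditional animal 70, a HOM female, brought Cacna1g to 0.06 and Cacna1h to −0.02.

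The auxiliary subunits were more uniform by TMM, the only scaling used for them. TMM raised synaptic values by 0.51 to 0.60 over library totals, and the germline WT fit included the pairs of males 1 and 2. Of all genes tested, 29.3%, 26.8%, 28.6%, 27.9% and 22.9% were called higher in germline WT, germline HET and conditional WT, HET and HOM. Called lower were 35.2%, 36.1%, 32.9%, 32.7% and 25.1%. Cacna2d1, Cacna2d2 and Cacna2d3, which encode alpha2delta proteins, were called higher in synaptic libraries in all 5 fits by TMM, and Cacna2d4 in none. Cacna2d3 was at 1.01, 1.56, 1.57, 1.56 and 1.43 in germline WT, germline HET and conditional WT, HET and HOM. Of the 4 beta subunit genes 4, 2, 4, 4 and 3 were called higher, and of 7 tested gamma and TARP genes 6, 6, 7, 7 and 7. Cacng2, whose product (stargazin) traffics AMPA receptors, was at 1.13, 1.56, 1.37, 1.30 and 1.13. Among 19 modulators and tethers 9, 10, 10, 9 and 5 were called higher and 4, 5, 4, 6 and 3 lower. Nalcn, a sodium leak channel of the same superfamily, was at 1.63 in conditional WT, while Rem1, a small GTPase that inhibits calcium channels, was at −3.78 (SE 0.855, edgeR adjusted p = 0.000613). Cacna1f, the retinal L-type gene, was called lower in germline HET and in all 3 conditional fits.

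In germline cortex no gene of the family passed the test between HET and WT (0 of 8 by edgeR and by DESeq2; 0.328% of all genes by edgeR). At an unadjusted p under 0.05 there were 2 of 8, against 9.14% of all genes. All 8 estimates were below 0, with a median of −0.12 beside −0.001 over all genes. Cacna1h had the largest difference. It was at 46.7, 69.1 and 85.2 CPM in WT (lowest, median and highest) and at 39.5, 61.3 and 81.2 CPM in HET, so the ranges overlapped (log2 fold change −0.21, SE 0.0756, edgeR p = 0.00924, adjusted p = 0.319). Cacna1c was at 72.7, 104 and 143 CPM in WT and 61.3, 93.4 and 120 CPM in HET (−0.14, SE 0.0668, edgeR p = 0.0487, adjusted p = 0.542).

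For the other genes the ranges of HET and WT overlapped almost wholly. Cacna1a was at 184, 268 and 343 CPM in WT and 201, 274 and 347 CPM in HET (log2 fold change −0.01, SE 0.0557), and Cacna1i at 135, 157 and 186 CPM in WT and 130, 157 and 189 CPM in HET (−0.0028, SE 0.0456). The estimates of Cacna1b, Cacna1d, Cacna1e and Cacna1g were −0.07, −0.13, −0.13 and −0.11. By batch, as labelled, 1 of 8 genes was higher in HET in each of the 2 batches, with medians of −0.04 (8 HET and 7 WT libraries) and −0.16 (8 and 8). The nuclear-retained RNAs moved with this: 8 of 8 were below 0 in HET, with a median of −0.32 and sums of 869 to 8710 CPM in HET and 1570 to 10200 CPM in WT. Across the 31 libraries, Pearson's r between that sum and a gene's level ran from 0.371 (Cacna1i) to 0.895 (Cacna1g), with Spearman's rho from 0.358 to 0.92 and permutation p adjusted over 32 relations from 2.91e-05 to 0.0647. It was 0.307 to 0.907 without the 2 farthest libraries, and 0.228 to 0.895 and 0.281 to 0.908 within the batches. The part of nuclear RNA in the genotype difference was not tested. In such bulk samples fewer cells of a type and less RNA per cell cannot be told apart.

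**Figure D3:**
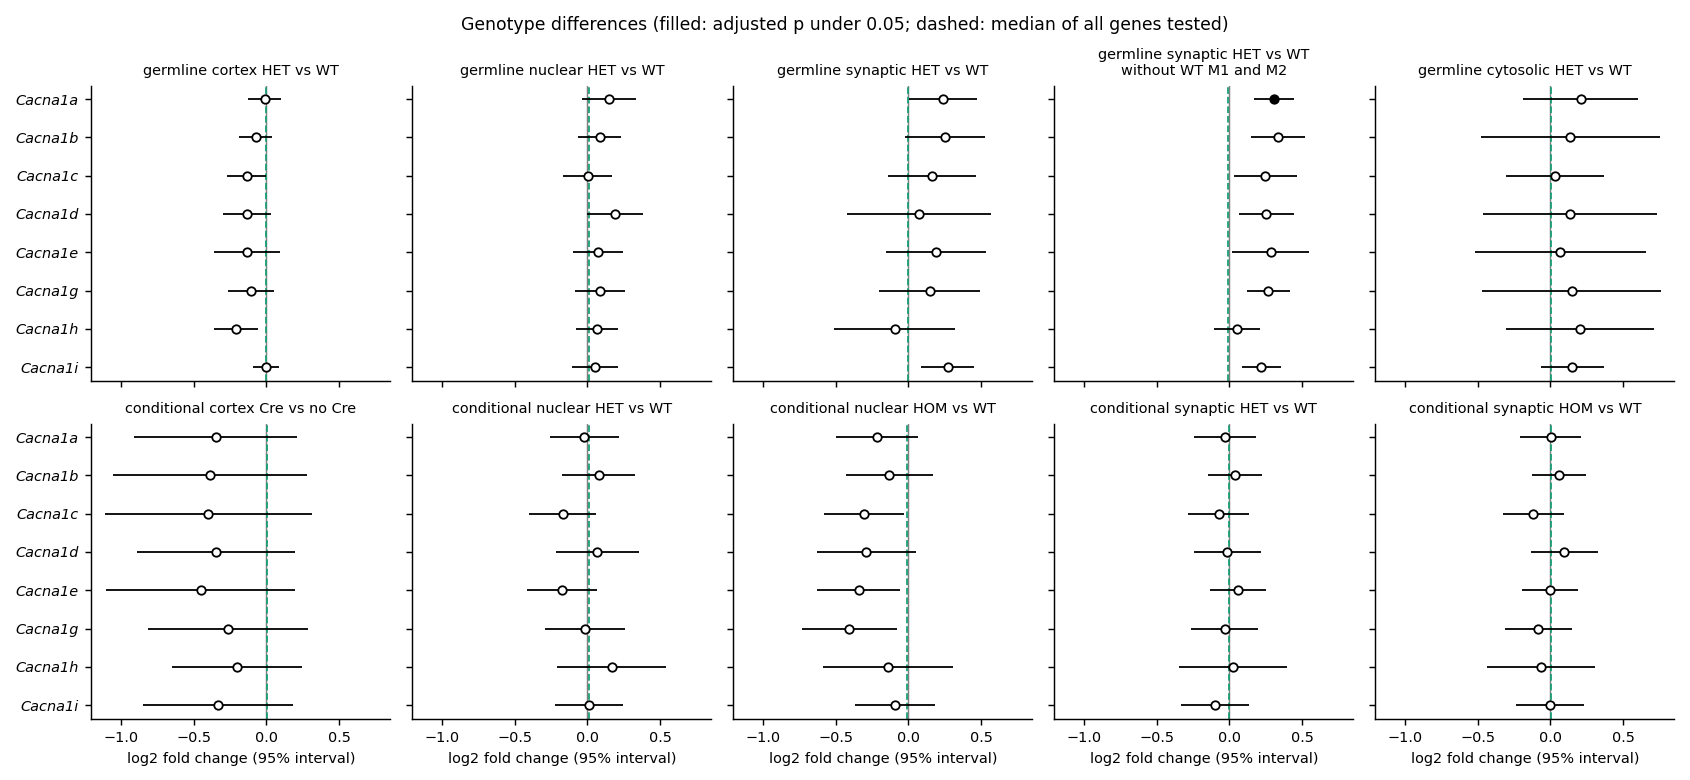
Log2 fold change of each gene in every genotype comparison, with its 95% interval (filled points have an adjusted p under 0.05, the dashed line is the median of all genes tested). Cacna1a in germline synaptic libraries without WT males 1 and 2 is the only filled point; all 8 points lie below 0 in germline cortex, conditional cortex and conditional nuclear HOM libraries.

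Germline nuclear libraries gave no call (0 of 8 by edgeR and DESeq2; 0.0151% of all genes by edgeR, and 0.00502% called higher; 0 of 8 at an unadjusted p under 0.05, against 7.27%). The family's median was 0.08 beside 0.01 over all genes. Cacna1d came nearest, at 84.1, 105 and 135 CPM in WT and 88.5, 122 and 148 CPM in HET, with overlapping ranges (0.19, SE 0.0945, edgeR adjusted p = 0.697). Cacna1a was at 199, 262 and 322 CPM in WT and 231, 301 and 330 CPM in HET (0.15, SE 0.0904). Of the 8 genes, 7, 6 and 4 were higher in HET within the 3 groups of batch labels. All 12 endothelial and mural markers were below 0 in HET, with a median of −0.41, and their part was not tested.

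Cytosolic libraries also gave no call (0 of 8 by edgeR and DESeq2; 0% of all genes by edgeR; 0 of 8 at an unadjusted p under 0.05, against 3.18%), and estimates ran from 0.03 to 0.21 with SE of 0.101 to 0.281. WT male 4 stood high: its Cacna1d was 65.3 CPM against 26.7 to 33.6 CPM in the other 4 WT libraries, and its nuclear-retained RNAs summed to 14500 CPM. Over the 12 cytosolic libraries the levels of the genes followed that sum, with r from 0.689 to 0.983, rho from 0.783 to 0.965 and adjusted permutation p from 2.91e-05 to 0.0179, and with r from 0.751 to 0.97 without the 2 farthest libraries. Within the 7 HET libraries r ran from 0.685 to 0.991, and 5 WT libraries are too few for a value. Without HET male 2, 6 of the 8 genotype estimates fell below 0 (Cacna1g −0.10).

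The 1 genotype call of the family came from the germline synaptic fraction, with WT males 1 and 2 left out. With all 18 libraries 0 of 8 genes were called (edgeR and DESeq2; 0% of all genes by edgeR; 2 of 8 at an unadjusted p under 0.05, against 10.9%), and Cacna1i had the smallest p (0.27, SE 0.087, edgeR adjusted p = 0.336). Without the 2 libraries 1 of 8 was called, against 0.599% of all genes called higher. This was Cacna1a, at 154, 285 and 350 CPM in the 9 WT libraries and 218, 342 and 400 CPM in the 7 HET libraries (0.31, SE 0.0677, edgeR adjusted p = 0.0344). The WT and HET ranges overlapped.

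The other 7 genes lay on the same side in this fit. Cacna1b was at 84.5, 190 and 242 CPM in WT and 150, 235 and 278 CPM in HET (0.33, SE 0.0897, edgeR adjusted p = 0.0609). Cacna1g was at 72.6, 125 and 171 CPM in WT and 104, 153 and 170 CPM in HET (0.27, SE 0.0726, adjusted p = 0.0604). Cacna1i was at 129, 204 and 241 CPM in WT and 161, 240 and 281 CPM in HET (0.22, SE 0.0643, adjusted p = 0.0757). These 3 missed the threshold narrowly, and their ranges overlapped. Cacna1c (0.25), Cacna1d (0.25) and Cacna1e (0.28) had adjusted p of 0.201, 0.131 and 0.23, and Cacna1h was at 0.05 (adjusted p = 0.772). At an unadjusted p under 0.05 there were 7 of 8, against 18.8% of all genes, and the family's median was 0.26 beside −0.01 over all genes.

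Batch and genotype were unevenly spread in this fraction, since 5 of the 7 HET libraries fell in 1 of the 3 groups of batch labels, called B here. In group B Cacna1a was at 270 to 289 CPM in 3 WT and 341 to 400 CPM in 5 HET libraries, without overlap, and all 8 genes were higher in HET (median 0.36). The 3 WT libraries of group B are all female, while 3 of its 5 HET libraries are male and carry other batch labels. Its 2 female HET libraries were at 349 and 342 CPM. All 8 were higher in group A (1 HET and 2 WT libraries, median 0.42), but in group C (1 HET and 4 WT libraries) only 2 of 8 were (median −0.10; Cacna1a 0.07). The single HET library of group C is female and its 4 WT libraries are male, so genotype and sex cannot be told apart within it. The call of Cacna1a was lost without any 1 of WT females 2, 3 or 4 or of 6 of the 7 HET libraries, with the replicate block (0.32, edgeR adjusted p = 0.556) and with genotype alone as the model (0.35, edgeR adjusted p = 0.365), whereas DESeq2 called 4 of 8 genes. All 8 nuclear-retained RNAs were lower in HET with a median of −0.55 (480 to 1970 CPM summed, against 1170 to 3330 in WT), and their part was not tested. With their mean log2 level as a covariate 2 of 8 genes were called. These RNAs include Xist, at 18.7 to 140 CPM in female and at most 2.61 CPM in male libraries of this fraction. The covariate therefore also follows sex.

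**Figure D4:**
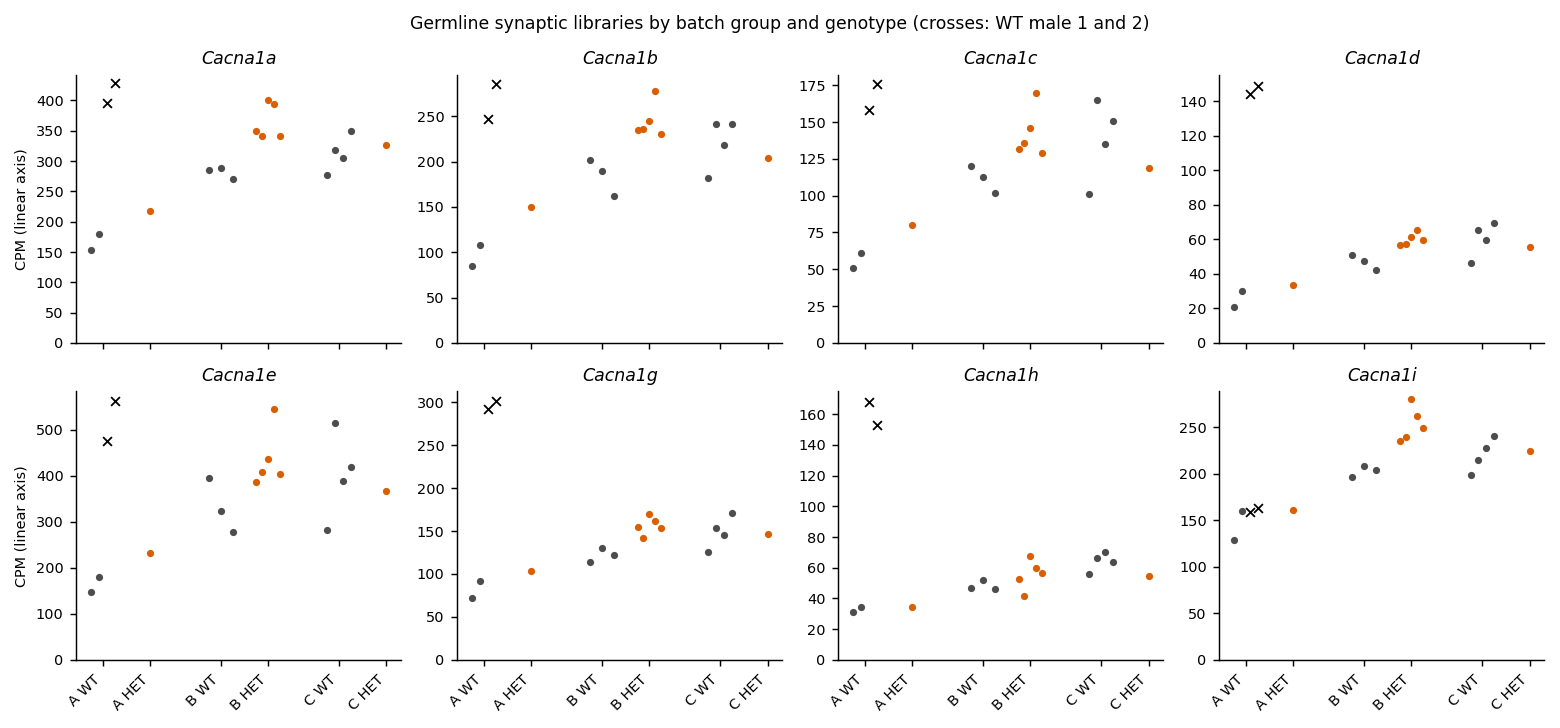
CPM of each gene (linear axis) in every germline synaptic library, by group of batch labels (A, B, C) and genotype; crosses are WT males 1 and 2. In group B the HET libraries lie above the WT libraries for Cacna1a (341 to 400 against 270 to 289 CPM). In group C the single HET library lies among the WT libraries for each gene except Cacna1h, where it is lowest. The crosses lie far above the rest for Cacna1d, Cacna1g and Cacna1h.

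In conditional cortex no gene passed the test (0 of 8 by edgeR and DESeq2; 0% of all genes by edgeR; 0 of 8 at an unadjusted p under 0.05, against 3.01%). All 8 estimates were below 0 with Cre, from −0.45 (Cacna1e) to −0.20 (Cacna1h), with SE of 0.21 to 0.334, edgeR adjusted p of 0.886 and a median of −0.35 beside 0.0008 over all genes. Cacna1e was at 82.8, 148 and 249 CPM without Cre and 58.3, 102 and 179 CPM with Cre, and Cacna1a at 90.0, 136 and 184 CPM and 55.4, 109 and 166 CPM, so both overlapped. Library-to-library spread was wide and was shared with markers of another cell type. Over the 14 libraries the summed oligodendrocyte markers (Mbp and 4 others; 3970 to 12000 CPM without and 4540 to 11500 CPM with Cre) had r of −0.936 to −0.857 with the 8 genes, rho of −0.943 to −0.877, and adjusted permutation p of 2.91e-05 to 0.000416. The r was −0.938 to −0.842 without the 2 farthest libraries, −0.949 to −0.782 within the 8 libraries without Cre, and −0.976 to −0.876 within the 6 with Cre. All 5 oligodendrocyte markers were above 0 with Cre, with a median of 0.14, and their part in the Cre difference was not tested. The nuclear-retained sum had r of 0.158 to 0.328 and rho of 0.213 to 0.455 with the genes (adjusted permutation p of 0.134 to 0.59). Its r was 0.264 to 0.514 without the 2 farthest libraries. It was −0.101 to 0.158 within the libraries without Cre and 0.288 to 0.476 within those with Cre. No other measure of these libraries, such as the share of even values among low counts (63.4 to 74.7%), was tested against the genes.

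**Figure D5:**
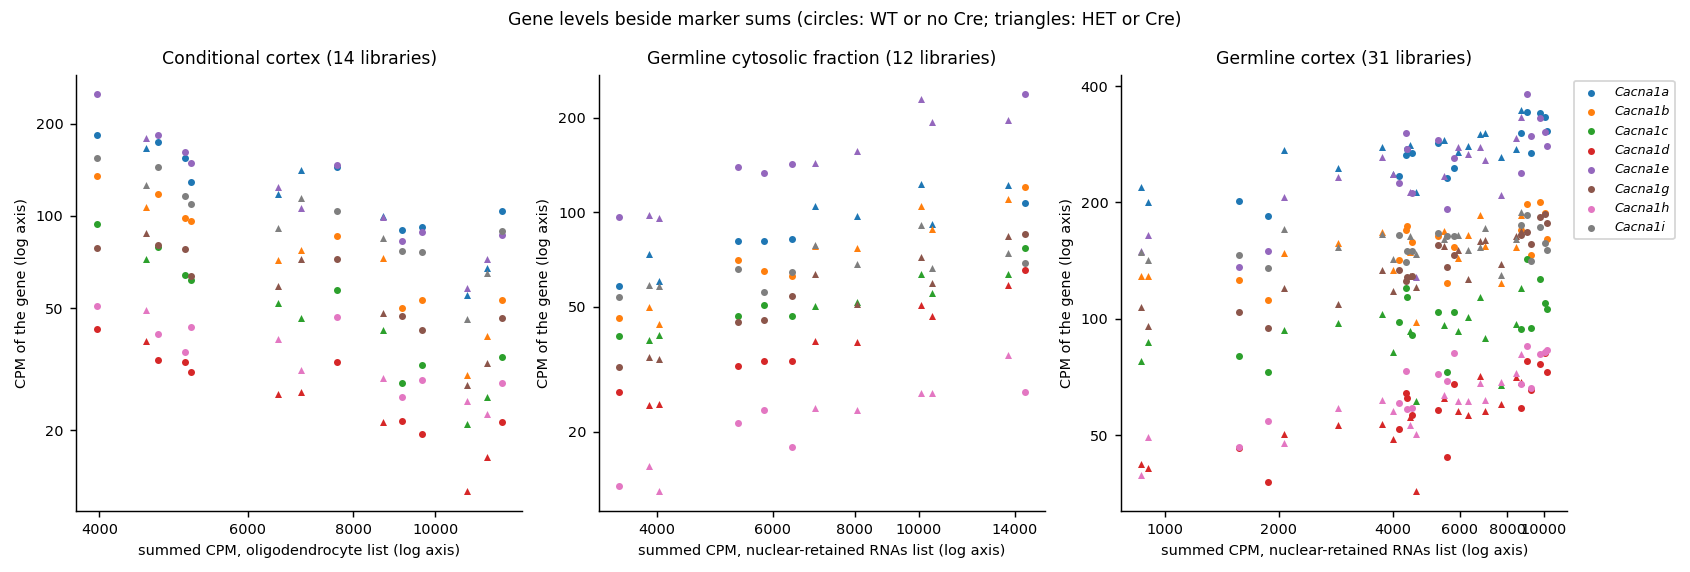
CPM of each gene against the summed CPM of a marker list, both on log axes, 1 point per library and gene (circles are WT or no Cre, triangles HET or Cre). In conditional cortex the genes fall as the oligodendrocyte sum rises (r of −0.936 to −0.857, n = 14), and in germline cytosol they rise with the nuclear-retained sum (r of 0.689 to 0.983, n = 12).

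In conditional nuclei no gene passed the test between HET and WT (0 of 8 by edgeR and DESeq2; 0% of all genes by edgeR; 0 of 8 at an unadjusted p under 0.05, against 4.44%), with 4 estimates on each side of 0. In HOM nuclei all 8 estimates were below 0, with a median of −0.25 beside −0.01 over all genes, and none was called (0 of 8 by edgeR and DESeq2; 0% of all genes by edgeR; 3 of 8 at an unadjusted p under 0.05, against 11.6%). Cacna1g was at 175, 146, 138 and 186 CPM in WT and 122, 87.4 and 139 CPM in HOM (−0.41, SE 0.156, edgeR adjusted p = 0.423). The highest HOM library lay just above the lowest WT library. Cacna1e was at 506 to 616 CPM in WT (median 543) and 460, 349 and 428 CPM in HOM, and Cacna1c at 142, 149, 138 and 163 CPM and 131, 94.2 and 117 CPM. Both were without overlap, at −0.34 (SE 0.136) and −0.31 (SE 0.131), with edgeR adjusted p of 0.423 and 0.426. HOM female 1 was lowest for all 3 genes, and without it the 8 estimates ran from −0.19 to 0.15. Endothelial and mural markers (12 of 12 below 0, median −0.87, median sum 762 CPM against 1300 CPM in WT) and nuclear-retained RNAs (8 of 8, median −0.51) were lower beside them, and their part was not tested.

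In conditional synaptic libraries the differences were small. Estimates ran from −0.10 to 0.06 in HET and from −0.12 to 0.10 in HOM, with medians of −0.02 and −0.004, and 0 of 8 genes were called in each (edgeR and DESeq2; 0% of all genes by edgeR; 0 of 8 at an unadjusted p under 0.05, against 4.28% and 4.78%). For Cacna1a the 95% interval was −0.24 to 0.18 in HET and −0.21 to 0.21 in HOM, and it was at 250, 265 and 294 CPM in WT (lowest, median and highest of 4), 213, 266 and 300 CPM in HET and 248, 262 and 298 CPM in HOM. The auxiliary subunits and modulators followed the same pattern: 0 of the 4 alpha2delta, 4 beta and 7 or 8 tested gamma and TARP genes, and of the 17 to 19 tested modulators, was called in any genotype comparison by edgeR.

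Over the 16 group means, the profiles of Cacna1b and Cacna1c were the most alike within the family (r = 0.99), and those of Cacna1d and Cacna1h the least (r = 0.448). These means share libraries' fraction, depth and scaling, and r is a description. Among 12424 genes compared, those closest to Cacna1i were Disp2 (0.997), Sez6l (0.996) and Reln (0.994), to Cacna1d Fras1 (0.988), Flt3 (0.977) and Ern1 (0.967), and to Cacna1a Pom121 (0.992), Tmem131 (0.989) and Scube1 (0.986). For Cacna1b they were Cd276 (0.99), Cacna1c (0.99) and Man2a1 (0.988), for Cacna1c Cacna1b (0.99), Adam22 (0.987) and Tenm4 (0.986), and for Cacna1e Gria3 (0.988), Fat3 (0.988) and Adam22 (0.987). For Cacna1g they were Nup210 (0.986), Cnnm3 (0.98) and Col20a1 (0.976), and for Cacna1h Tmem214 (0.985), Sema3f (0.984) and Sppl2b (0.981).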

How the data were processed

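The 8 genes, the partner lists and the marker lists were chosen with earlier results of these data known. The authors deposited raw counts per gene, and 5 of 6 tables were used, since 16 libraries appear in 2 tables with identical counts. Per the submitters' processing notes, the aligner was STAR 2.5.4b, the genome GRCm38 and the counter featureCounts 2.0.0. The conditional cortex table names featureCounts 1.6.0 and Ensembl 95 annotation, per the file headers. For the other tables the sources used here give no strand setting. Counts had an excess of even values (56.3 to 74.7% of low counts per library), so mates may have been counted separately. Of 54838 gene IDs, 54723 matched a symbol. The Cre row, at most 0.00135% of a library, stayed out of totals and tests. One gene of the oligodendrocyte list is not reported here and was left out of its values. Every pair of libraries in a group differed by more than sampling noise (the smallest chi-square was 4.66 per degree of freedom).

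Here CPM is counts per mega count of genes, and RPKM is CPM per kilobase of exons. Tests were edgeR's quasi-likelihood F test (version 4.0.16, with limma 3.58.1 in R 4.3.3) over all genes passing filterByExpr, with TMM scaling and Benjamini-Hochberg adjustment at 0.05, and "called" means an adjusted p under this threshold. Covariates were sex, and in germline cortex, nuclear and synaptic libraries also groups of batch labels (the other experiments have 1 batch label). Conditional fractions were fitted with all 3 genotypes together. The comparison of synaptic with nuclear libraries had a block for each animal, taken from the animal numbers in library names, and animal 91 was left out there. Each SE was computed as the absolute log2 fold change over the root of its F statistic, and p-values measure the spread between libraries. The scripts were tested on simulated data. Alternatives were DESeq2 1.42.0, RLE factors, library totals, no filter, other covariates, a replicate block, a nuclear-RNA covariate and leaving out libraries. Correlations used log2 values and 100000 permutations, two-sided, whose smallest p is 1e-05, adjusted over 32 relations. Every gene of the family was described, with the partner genes called with the smallest p (up to 4 each way per comparison) and the 3 genes most alike over 16 group means, among genes with an average log2 CPM of at least 1. Cacna2d4, Cacna1f and Cacng2 were named in further fits after their values were seen. Same-numbered libraries of 2 genotypes had r of 0.239 to 0.332 in conditional nuclear HET and WT libraries (4 pairs, 2 best with their own number). In conditional synaptic libraries r was −0.044 to 0.393 for HET and 0.062 to 0.235 for HOM (4 pairs and 3 best in each). Elsewhere r reached below 0. Conditional WT fractions have 2 libraries per sex, whose deviations mirror each other, so these pairs are not independent. The numbers served as pairs only in the replicate block. Figures were drawn with matplotlib 3.10.9.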

Additional observations from a re-analysis of the deposited data

Results flagged for a closer look

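Of 120 groups of 4 to 10 values looked at, 10 held 1 value far from the rest. Chance gives about 1 in 20 for separate groups, but these groups share libraries, so their share cannot be set against it. All 10 fell on germline synaptic HET female 3 or its animal, cytosolic WT male 4 or conditional nuclear HET female 4. In germline synaptic HET libraries, HET female 3 was lowest for Cacna1a at 218 CPM (others 326 to 400), for Cacna1d at 33.8 CPM (others 55.5 to 65.2) and for Cacna1g at 104 CPM (others 142 to 170). Its paired synaptic minus nuclear log2 CPM difference was also lowest among the germline HET animals, at −0.263 for Cacna1a (others 0.148 to 0.275), −0.676 for Cacna1b (others −0.12 to 0.059), −1.061 for Cacna1g (others −0.713 to −0.576) and −0.787 for Cacna1h (others −0.327 to −0.14). This library is the 1 HET library of batch group A, whose 2 WT libraries other than males 1 and 2 were low for the same genes.

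In germline cytosolic WT libraries, WT male 4 was highest for Cacna1c at 76.7 CPM (others 40.5 to 50.6) and Cacna1d at 65.3 CPM (others 26.7 to 33.6). In conditional nuclear HET libraries, HET female 4, the animal with a HOM label on its synaptic library, was highest for Cacna1a at 273 CPM (others 217 to 230).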

How the results depend on the processing

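In genotype comparisons other than germline synaptic, all 8 genes stayed uncalled under every alternative run. For germline synaptic HET against WT, 0 genes were called with all libraries and 1 without WT males 1 and 2. From that 1, the count moved to 2 with nuclear RNA as a covariate, 4 with DESeq2, 7 without the filter, 2 with 6 batch levels, and 0 with genotype alone or the replicate block. It ran from 0 to 4 when 1 library more was left out: 0 without WT female 2, 3 or 4 or HET female 1, 2, 3 or 4 or male 1 or 2, 2 without WT male 4, and 4 without HET male 3 or WT male 6. The replicate block changed no other call. Between fractions, germline WT ran from 3 to 5 of 8 when 1 animal was left out (5 without female 4), germline HET from 2 to 4. Germline WT gave 6 without the pairs of males 1 and 2 under library totals, germline HET gave 5 without those pairs, and library totals gave 3 in conditional WT and 3 in conditional HET. Of 344 values between fractions (interactions included) outside library totals, 335 kept their side of the threshold, 4 lost and 5 gained a call, and of 616 genotype values 602, 2 and 12. Among these, 10 and 29 values that were called in neither fit changed sign.

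Library totals, with all pairs or without those of WT males 1 and 2, turned 15 values between fractions from above to below 0. These were values called under at least 1 of the scalings. With all pairs this follows from the 0.51 to 0.60 offset to TMM. Where pairs were left out, their removal is part of the change. Cacna1a in germline WT was at 0.6958 by TMM and 0.1858 under library totals with all pairs. With values called under neither scaling, 37 values changed sign over all settings, 10 of them outside library totals. In germline WT, Cacna1h was at −0.0791, and without the pairs of males 1 and 2 Cacna1a, Cacna1b, Cacna1c, Cacna1e and Cacna1h were at −0.0219, −0.494, −0.4104, −0.4759 and −0.3821. In germline HET, Cacna1c was at −0.0739, and without those pairs Cacna1c and Cacna1h at −0.0738 and −0.3253. In conditional WT, Cacna1e, Cacna1g and Cacna1h were at −0.1665, −0.5137 and −0.0077, in HET Cacna1g and Cacna1h at −0.4569 and −0.1025, and in HOM Cacna1g at −0.1211. The cause of the other changes was not tested.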
